A study of Homo sapiens with 3 samples.

Results

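A set of 10 genes of the NF-kappaB system, chosen by symbol, was examined for accessible chromatin in hCMEC/D3 cells: the subunits NFKB1, NFKB2, RELA, RELB and REL, the inhibitors NFKBIA and NFKBIZ, and the feedback and signalling genes TNFAIP3, BIRC3 and TRAF1. All 10 were matched in RefSeq's list of genes for GRCh38.p14, among 20037 protein-coding genes on the 24 chromosomes that carried peaks. No measured value entered the choice of genes, although results of these data were known when the list was drawn up.

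The hCMEC/D3 line is an immortalized endothelial line that came from small vessels of the human brain, and it stands here as the single model. Cells were grown to confluence in endothelial medium on collagen-coated plates, and the labels name no cytokine or other treatment. The peaks come from 1 ATAC-seq library, labelled replicate 2, in which the Tn5 transposase cuts open DNA. The library held 31532245 tags, of which 22188172 were kept after 1 tag per position was allowed, and the authors' list held 106415 broad peaks. No second ATAC library or condition was analysed, so a value has no replicate error, a difference between genes has no test, and every comparison below is a description of this library.

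NF-kappaB proteins are dimers of subunits that share a Rel homology domain. In resting cells inhibitors of the IkappaB family hold the dimers back. Cytokines such as tumour necrosis factor activate a kinase complex that marks these inhibitors for destruction, and the freed dimers enter the nucleus and bind kappaB sites in DNA. Many of the genes that then switch on encode the pathway's own inhibitors and subunits, so that the signal limits itself. In endothelium the pathway is best known for switching on leukocyte adhesion molecules and chemokines.

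Every one of the 10 genes had a peak within 1 kb of a gene end, compared with 72.8% of protein-coding genes. When only peaks with a fold of at least 4 over the local background were kept, NFKBIA and TRAF1 lost theirs, which left 8 of 10 against 56.0%. Any peak in the gene or 10 kb either side was likewise found for 10 of 10, against 89.8%. In all, 53 peaks lay in the 10 genes or within 10 kb of them. Of these, 14 lay within 1 kb of a gene end, 21 lay inside a gene away from its ends and 18 lay in the flanks. A peak inside the gene was found for 7 of the 10 genes, against 55.9% of protein-coding genes, and a peak in the flanks for 7 of the 10, against 65.6%. Neither count stands far from its background. The listed pileup is a depth in tags. In broad mode the caller gives the mean over the whole region, so a long peak with a tall centre can have a smaller pileup than a short one, and pileups of peaks of different length do not compare their summits. The median pileup was 42.2 tags for the end peaks, 23.6 for the peaks inside and 35.1 for those in the flanks. Over all protein-coding genes the same medians were 41.4, 20.5 and 27.1 tags.

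**Figure D1:**
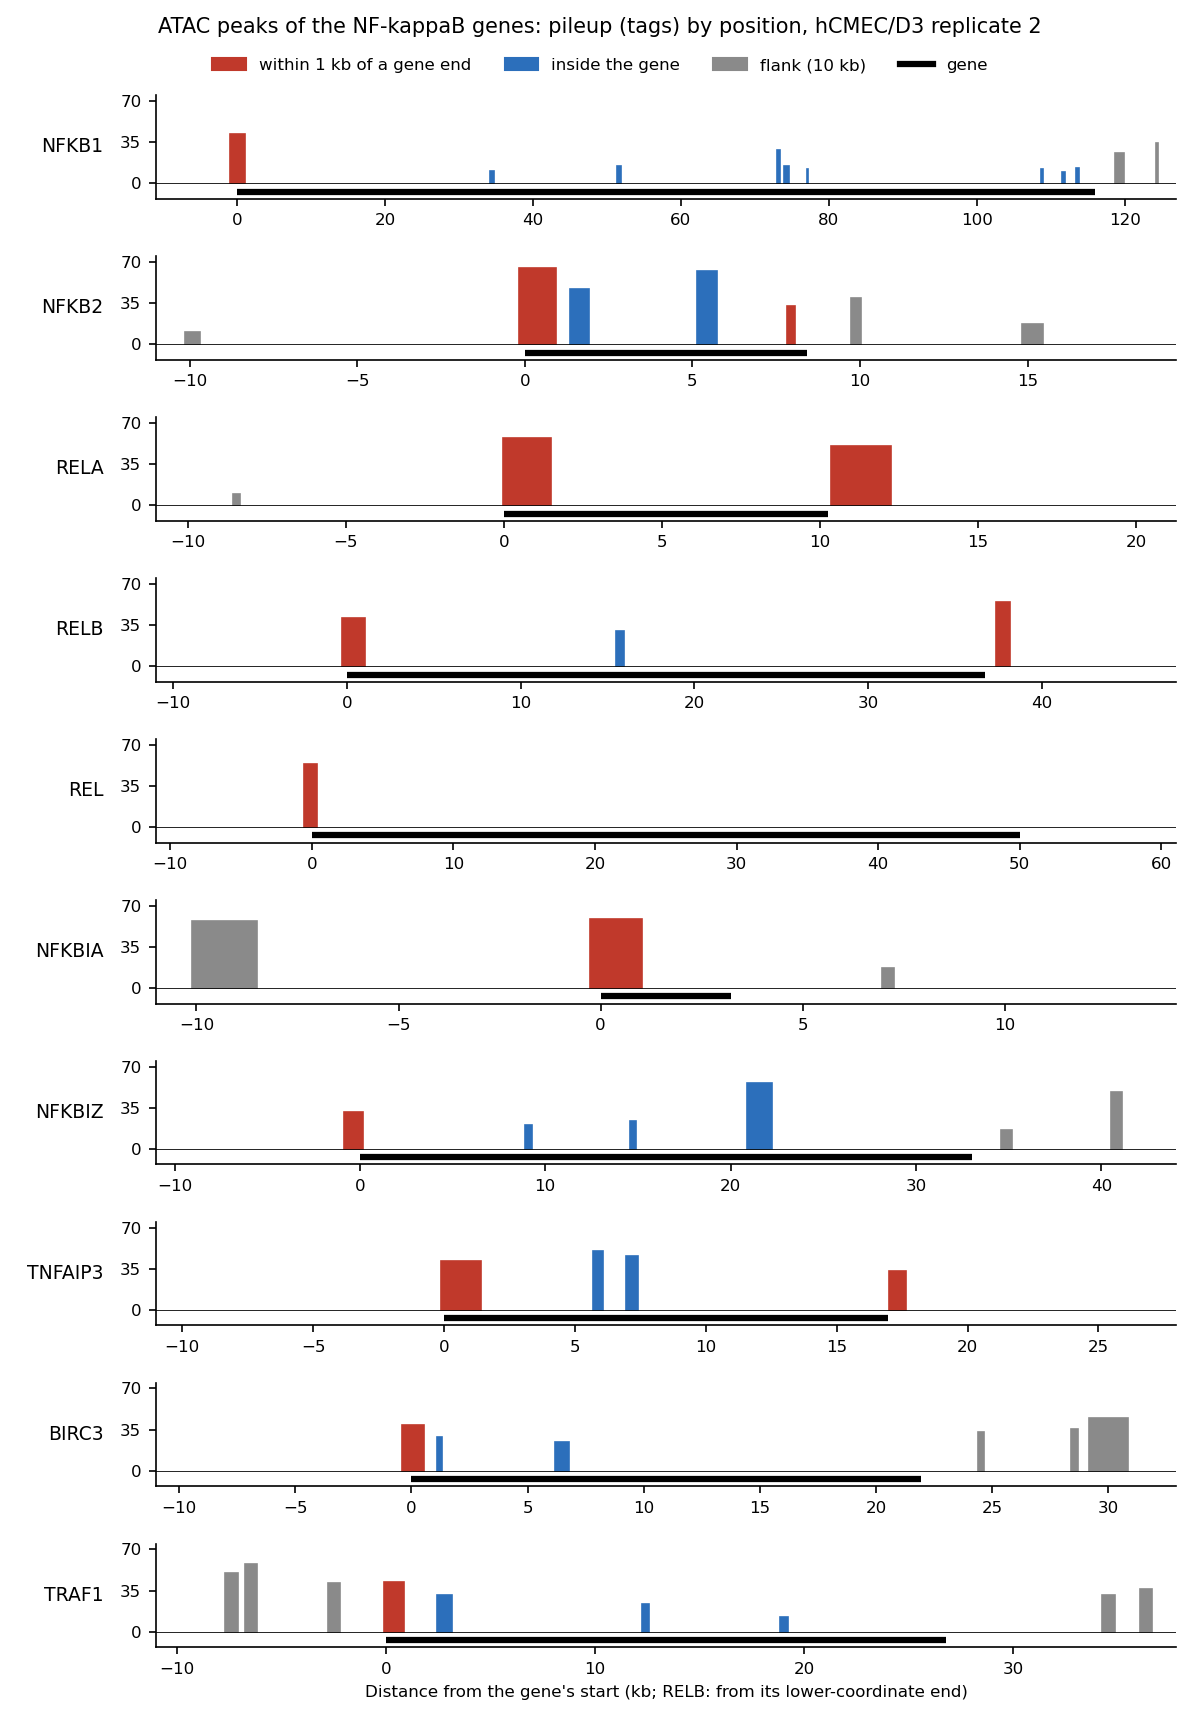
Position of each peak from the start of its gene in kb (horizontal axis, a separate scale for each gene) and its pileup in tags (vertical axis) in the 1 ATAC library; black bars are the genes, and colours mark peaks at an end, inside and in the flanks. REL holds 1 peak and NFKB1 11, and each gene has a peak at its start (RELB: at its lower-coordinate end).

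For 9 of the genes a RefSeq promoter table gave the strand and the start sites; RELB had no entry there. All 9 had a peak within 1 kb of the start end of the gene, against 71.2% of the 15843 protein-coding genes with an entry. At the opposite end, 3 of the 9 had a peak (NFKB2, RELA and TNFAIP3), against 19.1%. Counting RELB, 4 of the 10 genes had a peak at each end, against 15.4% of all protein-coding genes. The far-end peaks of NFKB2 and RELA, and the RELB peak at its higher-coordinate end, also lay at an end of another gene (PSD, SIPA1 and CLASRP). Only that of TNFAIP3 did not. The table lists 16 starts for the 9 genes, and the start base itself lay in a peak for 14 of them, against 62.5% of the 22199 starts of protein-coding genes. The exceptions were the 2 inner starts of TRAF1. Starts 1 and 2 lay in the same peak in each of NFKB1, NFKB2 and RELA, so the 14 starts are not independent. Of the 5 genes with 2 or more listed starts, 4 had all of them in peaks, against 42.0% of such protein-coding genes.

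Several of these start peaks were shared with a noncoding gene. For 5 of the 9 genes (NFKB1, RELA, REL, TNFAIP3 and BIRC3) the peak at the start also lay within 1 kb of an end of a long noncoding RNA gene, against 19.4% of the 11277 protein-coding genes with a start peak. Tags in such a peak cannot be assigned to one gene or the other, and transcripts of these noncoding genes were not analysed here.

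By pileup the end peaks spread around the middle of those of other genes, and by fold most lay below it. Pileup is a mean over each region and enters the fold, so neither rank compares summits between peaks of different length. The end peak with the largest pileup in each gene ranged from 31.7 tags at NFKBIZ to 64.8 tags at NFKB2, and its percentile among genes of similar length (up to 25% longer or 20% shorter) that had an end peak ran from 22.4 at NFKBIZ to 79.4 at NFKB2, with a median of 54.9. The NFKBIZ value is that of its first start. Its second start lies inside the gene, so the peak there, of 56.0 tags, was not counted as an end peak. Length varied more widely. The NFKB1 peak, at 2010 bp, stood at the 95.4th percentile. The RELB peak with the larger pileup, at its higher-coordinate end, had 843 bp and stood at the 25.5th. Ranked instead by fold enrichment, the pileup over a local background estimated from the same library, the median percentile was 35.2, and 4 of the 10 genes were above 50. NFKBIA stood at the 70.6th percentile by pileup and at the 18.5th by fold (3.22), while RELB stood at the 63.2nd and the 94.5th (7.75). The RELB ranks belong to its higher-coordinate peak, which also lay at an end of CLASRP. The peak at the lower-coordinate end of RELB had 40.7 tags, 1337 bp and a fold of 5.12. TRAF1 stood lowest by fold, at the 11.5th, followed by TNFAIP3 at the 16.3rd.

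**Figure D2:**
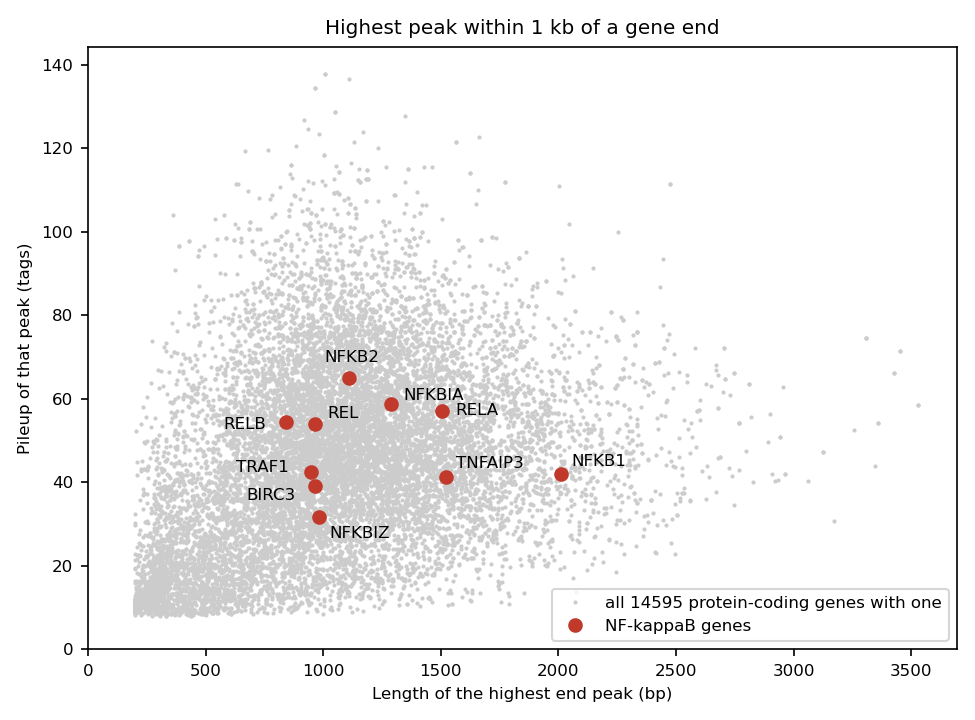
Length in bp (horizontal axis) and pileup in tags (vertical axis) of the peak with the largest pileup within 1 kb of a gene end, for 14595 protein-coding genes (grey) and the NF-kappaB genes (red). The 10 genes lie between 843 and 2010 bp and between 31.7 and 64.8 tags, within the main cloud. The 843 bp peak is that at the higher-coordinate end of RELB, and the peak over the inner start of NFKBIZ is not counted.

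The promoter windows were searched for the kappaB consensus, a 10-base pattern for sites of NF-kappaB dimers. It reads GGGRNNYYCC, where R is A or G, Y is C or T and N is any base. Sites that depart from this pattern were not counted. Both strands were searched over the 300 bases from 250 before each start to 50 after it, with overlapping matches counted at each position. A match was present in 9 of the 16 windows and in 7 of the 9 genes, against 12.7% of windows and 15.9% of genes over all protein-coding genes with an entry. Windows of the same gene are not independent, and the 9 genes had 16 windows where all 15843 genes had 22199. The genes were listed as parts of a pathway known to switch on many of its own genes through kappaB sites. The list was thus not independent of the pattern, and the higher share is no separate evidence about these promoters. RELA and TRAF1 had no match in any window. The stretches that hold the matches in the inhibitor and feedback genes are shown first, from RefSeq in GRCh38.p14, 5′ to 3′ along the gene, with the matched bases in capitals.
NFKBIA (chr14:35404801-35404850, minus strand): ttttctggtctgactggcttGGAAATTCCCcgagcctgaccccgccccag
NFKBIZ start 1 (chr3:101827747-101827796, plus strand): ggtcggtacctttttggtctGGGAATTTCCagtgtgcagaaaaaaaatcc
NFKBIZ start 2 (chr3:101849264-101849304, plus strand): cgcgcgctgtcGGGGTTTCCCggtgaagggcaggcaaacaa
TNFAIP3 (chr6:137867172-137867233, plus strand): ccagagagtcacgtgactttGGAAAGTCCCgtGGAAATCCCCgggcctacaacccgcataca
BIRC3 (chr11:102317265-102317378, plus strand): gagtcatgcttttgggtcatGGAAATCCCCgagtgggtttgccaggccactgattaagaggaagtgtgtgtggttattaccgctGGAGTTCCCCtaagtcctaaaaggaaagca

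Among the subunits, NFKB1, NFKB2 and REL held matches. They are shown in the same way, since they place the pattern in the promoters of the factors that bind it.
NFKB1 start 1 (chr4:102501290-102501339, plus strand): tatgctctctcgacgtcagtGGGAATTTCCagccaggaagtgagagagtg
NFKB2 start 2 (chr10:102394451-102394529, plus strand): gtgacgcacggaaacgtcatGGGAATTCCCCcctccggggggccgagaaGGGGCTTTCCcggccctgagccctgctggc
NFKB2 start 3 (chr10:102395509-102395704, plus strand): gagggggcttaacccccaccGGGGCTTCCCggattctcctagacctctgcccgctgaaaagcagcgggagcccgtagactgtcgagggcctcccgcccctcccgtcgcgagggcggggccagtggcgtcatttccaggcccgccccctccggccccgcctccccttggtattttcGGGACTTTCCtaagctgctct
REL (chr2:60881507-60881557, plus strand): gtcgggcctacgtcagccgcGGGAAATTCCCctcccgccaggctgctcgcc

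The same 10 bases, gggaatttcc read on one strand or the other, occurred in NFKB1 (positions -49 to -40, counted from the start base as 0), REL (-46 to -37), NFKBIA (-81 to -72) and at the first start of NFKBIZ (-223 to -214). They were found in 29 of the 22199 windows of protein-coding genes. TNFAIP3 carried a pair of matches, at -67 to -58 and -55 to -46, both on the strand opposite to the gene. The first of these reads gggactttcc on that strand and recurs at start 3 of NFKB2, at -21 to -12. The second, ggggatttcc, recurs in BIRC3 at -199 to -190. Of the 22199 windows, 42 held gggactttcc and 29 held ggggatttcc, on one strand or the other. Windows with matches at 2 or more positions made up 2.3% of all windows and 5 of the 16 here, from NFKB2 (starts 2 and 3), REL, TNFAIP3 and BIRC3. The positions at REL, -47 to -38 and -46 to -37, overlap and are not separate stretches. So do those at -107 to -98 and -106 to -97 of NFKB2 start 2, which has a further match at -78 to -69.

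All 15 match positions in these genes lay whole inside a peak, against 66.7% of the 3440 match positions in promoter windows of protein-coding genes. The 9 windows that held these 15 positions all had their start in a peak, and peaks covered them whole or nearly whole. The count of 15 therefore follows from the start peaks and is no separate evidence about the matches. The 66.7% also takes in matches from 831 windows whose start lay outside a peak. Over all promoter windows of protein-coding genes a match was found in 14.3% of those whose start lay in a peak and in 10% of the rest. The windows with a match differed in base composition. GC content was 79.0% at REL, which put it at the 95.5th percentile of protein-coding windows, and 53.3% at BIRC3, the 25.9th, against a median of 62.3%. A match is a run of letters and does not show that a factor was bound, and the absence of one in RELA and TRAF1 says only that these letters are not in these windows.

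**Figure D3:**
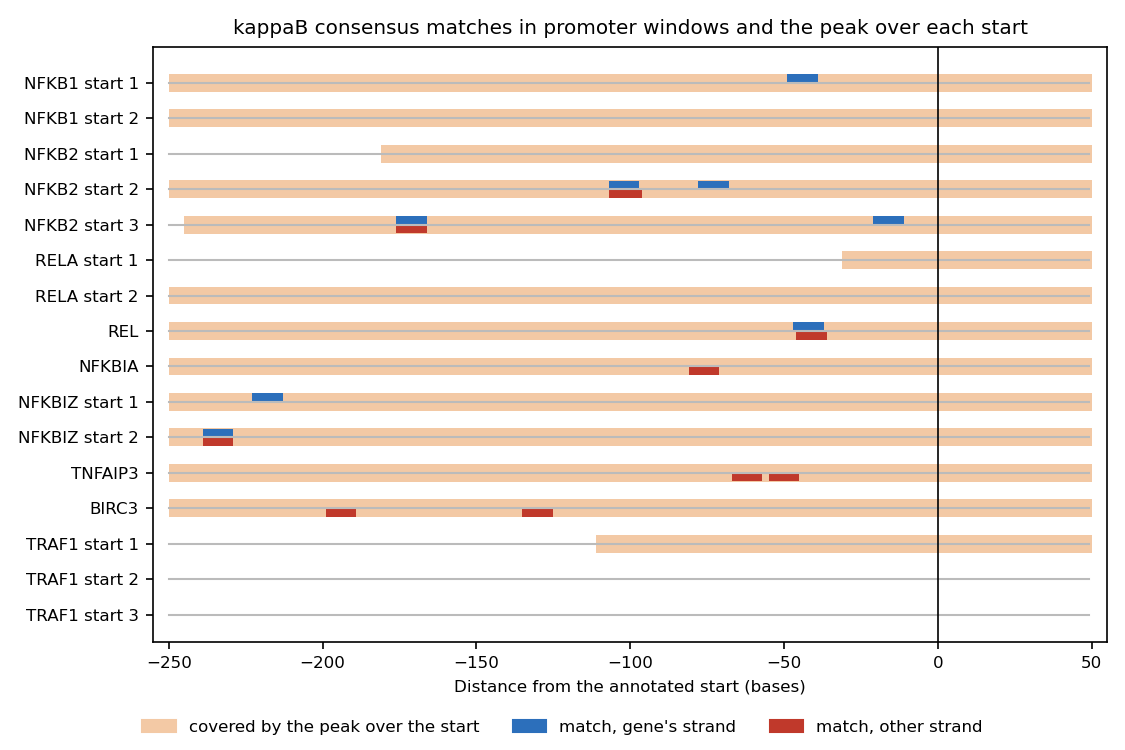
Promoter windows of the 9 genes with listed starts, by distance from the start in bases (horizontal axis); shading is the part covered by the peak over that start, and marks are kappaB consensus matches on the gene's strand (blue) or the other strand (red). The 9 windows with matches are covered by a peak at every match, and the windows of TRAF1 starts 2 and 3 have no peak over the start.

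NFKB1 encodes p105, the precursor of the DNA-binding subunit p50. It is the longest of the genes, at 115.9 kb, and had the most peaks, 11. The widest peak of all 10 genes covered both of its listed starts (chr4:102500430-102502439, 41.9 tags, 2010 bp), and the same peak reached the end of the antisense gene NFKB1-AS1. The 8 peaks inside the gene had smaller pileups, from 9.46 to 28.6 tags. The largest of these was 73.2 kb from the start (chr4:102574331-102574709). Several of the later ones, from 108.9 kb on, also overlapped the noncoding gene LOC105377347. Past the far end there were 2 flank peaks, of 26.1 tags at 119.3 kb and 34.6 tags at 124.4 kb, and the nearer of them covered a start of LOC105377347.

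NFKB2 encodes p100, the precursor of p52, which serves the noncanonical branch of the pathway. The gene is only 8.4 kb long, yet 7 peaks lay in it or its flanks. Starts 1 and 2 shared the peak with the highest pileup of all 53 (chr10:102393929-102395039, 64.8 tags), and start 3 had a peak of its own (chr10:102395460-102396018, 47.2 tags). A further, shorter peak with a pileup of 62.2 tags (594 bp) lay 5.44 kb from the start (chr10:102399251-102399844). The peak near the far end (chr10:102401914-102402177, 32.7 tags) also lay within 1 kb of an end of the neighbouring gene PSD. Of the 3 flank peaks, one of 10.6 tags lay at -9.91 kb, and those of 39.0 and 17.1 tags, past the far end, overlapped PSD, the latter at a start of that gene.

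RELA encodes p65, the main transactivating subunit of the canonical pathway. Its 3 peaks comprised one over both listed starts (chr11:65662382-65663888, 57.1 tags), which also covered the start of the divergent noncoding gene RELA-DT, one at the far end (chr11:65651610-65653498, 50.2 tags), which also reached an end of SIPA1, and a 205 bp peak of 9.83 tags at -8.45 kb from the start. No peak lay inside the gene away from its ends.

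RELB encodes the partner of p52 in the noncanonical branch. It had a peak at its lower-coordinate end (chr19:45001169-45002505, 40.7 tags), another at its higher-coordinate end (chr19:45038815-45039657, 54.3 tags) that also lay at an end of CLASRP, and 1 inside. The inside peak was of moderate pileup, 30.3 tags, but had the highest fold of the 53 peaks, 8.95 (chr19:45016932-45017385).

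REL encodes c-Rel, a subunit best known from lymphocytes. It stood apart from the other genes in having a single peak in its 50039 bp and both flanks together. That peak covered the start and the start of the divergent noncoding gene REL-DT (chr2:60881017-60881979, 53.9 tags, 963 bp), and its pileup was at the 62.8th percentile of end peaks of genes of similar length. Of 2213 genes of similar length, the median had 4 peaks, and REL was at the 8.2nd percentile. Over all lengths, 21.6% of protein-coding genes had 1 peak or none. With flanks of 20 kb in place of 10 kb, REL had 5 peaks, so the next peaks lay between 10 and 20 kb from the gene, and it stood at the 43.4th percentile, near the middle. The low rank thus held for the narrower window and not for the wider one.

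NFKBIA encodes IkappaB-alpha, the inhibitor that holds p65 dimers in the cytoplasm and that these dimers themselves induce. The start lay in a peak of 58.6 tags and 1289 bp (chr14:35403715-35405003). A second peak of almost the same size, 57.0 tags and 1623 bp, lay before the gene with its centre at -9.30 kb from the start (chr14:35413239-35414861). This second peak lay at the end of no annotated gene and reached -10.1 kb from the start, just past the limit of the flank. The remaining peak, 7.12 kb beyond the start, had 17.2 tags and the lowest fold of all 53 peaks, 1.995.

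NFKBIZ encodes IkappaB-zeta, a nuclear member of the IkappaB family that works as a cofactor for secondary response genes. It has 2 listed starts, the second inside the gene, and each had its own peak. The peak over the first start had 31.7 tags (chr3:101827153-101828135, 983 bp), at the 21.1st percentile of peaks over starts of protein-coding genes, and lay within 1 kb of an end of NXPE3. The peak over the second start had 56.0 tags (chr3:101848892-101850221, 1330 bp, centred 21.6 kb from the first start), at the 65.4th percentile. The inner start thus had the peak with the larger pileup, and the longer one, in this library. Peaks of 20.8 and 23.6 tags lay between the starts. Past the gene lay a peak of 16.4 tags and one of 48.5 tags, the latter 40.8 kb from the first start (chr3:101868527-101869130).

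TNFAIP3 encodes A20, a ubiquitin-editing enzyme that shuts off signalling upstream of the kinase complex. The annotated gene begins before the listed start, and a single peak covered both (chr6:137866250-137867771, 41.3 tags, 1522 bp), also reaching the noncoding gene WAKMAR2. Inside the gene there were 2 shorter peaks, with 50.2 tags over 390 bp at 5.90 kb from the annotated gene start (chr6:137872051-137872440) and 45.6 tags over 461 bp at 7.18 kb (chr6:137873294-137873754). Their mean pileups were larger than that of the start peak, which is averaged over a longer region. A peak just past the far end had 33.5 tags and a fold of 7.36 (chr6:137883357-137883985). No peak lay in the rest of the flanks.

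BIRC3 encodes cIAP2, a ubiquitin ligase of the tumour necrosis factor receptor complex. The peak over its start had 39.1 tags (chr11:102317057-102318022) and was shared with the noncoding gene LOC124902739, with further peaks of 28.6 tags at 1.21 kb and 24.8 tags at 6.48 kb. All 3 flank peaks, of 33.3, 35.5 and 45.0 tags, lay past the far end, towards the neighbouring paralogue BIRC2. The largest of them, 45.0 tags and 1672 bp (chr11:102346657-102348328), covered a start of BIRC2 itself, so the largest pileup counted for BIRC3 lay at a start of its paralogue.

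TRAF1 encodes an adaptor that binds cIAP proteins and is itself induced by the pathway. It had 9 peaks, and 5 of them lay in the flanks. The peak over the first start had 42.5 tags (chr9:120928335-120929282). Before the gene there were 3 peaks, at -2.49 kb (41.3 tags), -6.46 kb (57.9 tags, chr9:120935339-120935929) and -7.41 kb (49.7 tags, chr9:120936266-120936890) from the start. The 2 farther ones, of 591 and 625 bp, had larger mean pileups than the 948 bp peak at the start. Inside the gene, peaks of 31.4 tags at 2.78 kb, 23.4 tags at 12.39 kb and 12.95 tags at 19.04 kb were found. The 2 flank peaks past the far end, of 36.5 and 31.4 tags, overlapped the neighbouring gene PHF19. Start 2 lay just outside a peak that covered 5 bases of its 300-base window, and start 3 had no peak in its window.

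Longer genes hold more peaks: genes as long as NFKBIA had a median of 2 and genes as long as NFKB1 a median of 7. Each gene was therefore ranked among protein-coding genes of similar length. Peak number was at or above the 90th percentile for 2 of the 10 genes, NFKB2 (98.5th percentile, 7 peaks against a median of 3 in 1743 genes) and TRAF1 (97.1st, 9 peaks against a median of 3 in 2396 genes), where 9.72% of all protein-coding genes were. The same 2 genes passed this rank for summed pileup, both at the 95.4th percentile, against 10.1% of genes. Summed pileup adds up over the peaks, so it rises with their number and is no separate result. By the highest pileup of any 1 peak, NFKB2 stood at the 77.3rd percentile and TRAF1 at the 64.8th. For summed peak length TRAF1 alone passed, at the 94.8th percentile, against 10% of genes. The remaining genes were not all high: BIRC3 stood at the 85.6th percentile for peak number, NFKBIZ at the 79.0th, NFKB1 at the 75.9th, NFKBIA at the 67.7th, TNFAIP3 at the 64.9th, RELA at the 54.9th, RELB at the 39.2nd and REL at the 8.2nd. The median over the 10 genes was 71.8 for peak number, 83.0 for summed length and 76.0 for summed pileup, where 50 is the middle of genes of similar length. All 10 genes had an end peak, whereas some of the genes compared had none. Ranked only among similar genes with an end peak, each gene stood lower on peak number, summed length and summed pileup. For peak number NFKBIA then stood at the 50.2nd percentile and RELA at the 42.2nd, and for summed pileup at the 60.0th and the 51.4th. NFKB2 and TRAF1 still passed for number (97.8th and 96.5th). The ranks of TRAF1 rested on its flanks. With flanks of 5 kb it stood at the 83.4th percentile for number, the 77.8th for length and the 78.5th for pileup; NFKB2 alone then passed for number and pileup, and RELA alone for length. With flanks of 1 kb, chosen after seeing the data, TRAF1 stood at the 83.0th, 75.8th and 75.3rd. When only peaks with a fold of at least 4 were kept, NFKB2 stood at the 65.3rd for number and the 86.0th for pileup, and TRAF1 at the 79.7th for length and the 88.9th for pileup, so that neither passed on those measures.

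**Figure D4:**
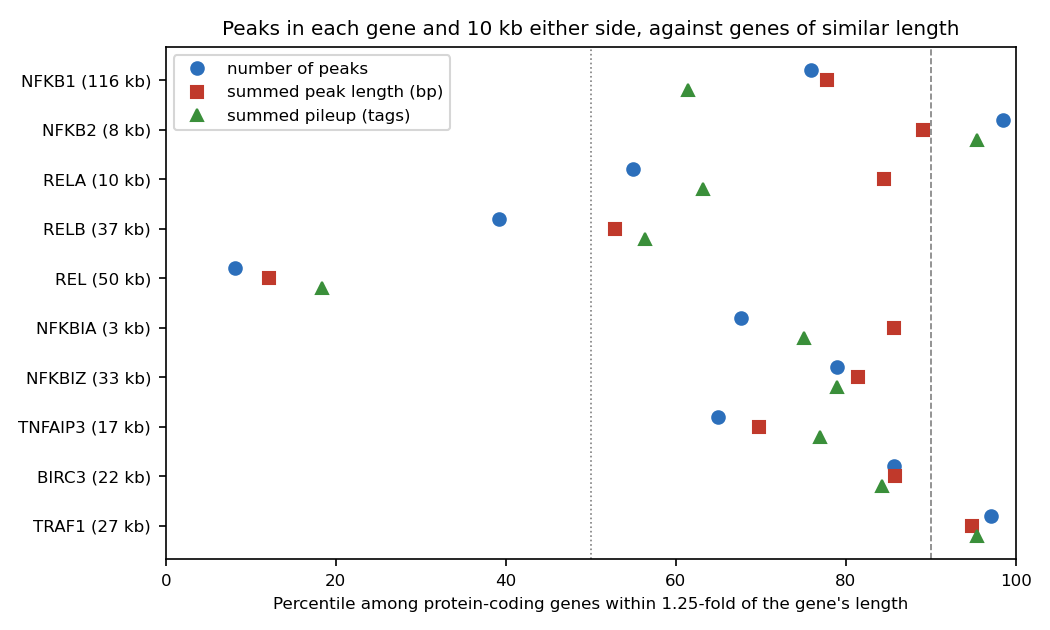
Percentile of each gene among protein-coding genes of similar length (horizontal axis; dotted line 50, dashed line 90) for the number of peaks, their summed length and their summed pileup in the gene and 10 kb either side, in the 1 ATAC library. REL lies lowest on all 3 measures, at the 8.2nd to 18.4th percentile, and NFKB2 and TRAF1 highest in peak number.

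Genes acting around these in the pathway were described in the same way, from a list of 43 set by role. Of these, 38 had a peak at an end, against the 72.8% of all protein-coding genes, and their median percentile for peak number was 67.8. All 6 receptor genes had an end peak, and TNFRSF1A, the main receptor for tumour necrosis factor, had 8 peaks against a median of 3 (98.5th percentile), while TNFRSF1B had 10, the most in that role. Of the 16 adaptors and kinases, 15 had an end peak. MAP3K14, the kinase that triggers processing of p100, had 14 peaks (99.3rd percentile), whereas MAP3K7 and IRAK4 had 1 each (6.8th and 11.4th). Of the 11 other inhibitor and feedback genes, 9 had an end peak, and TNIP1, which encodes a partner of A20, had 16 peaks (99.7th percentile) and none at an end. No gene of the list was without a peak in the gene and its flanks.

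Of the 10 genes that NF-kappaB is known to induce in endothelium, 8 had an end peak. The exceptions were VCAM1 and SELE, which encode the adhesion molecules VCAM-1 and E-selectin and had 2 peaks each, 1 inside and 1 in the flank, at the 29.3rd and 34.0th percentiles. CX3CL1 had the most, 8 (98.8th percentile). The kappaB consensus was found in a promoter of 5 of the 8 induced genes with an entry in the promoter table, VCAM1 and SELE among them. It was found for 5 of 10 of the other inhibitor and feedback genes, 3 of 14 adaptors and kinases and 0 of 5 receptors, against 15.9% of all genes with an entry. These lists were also set by role in the pathway, the induced genes as known targets, so the shares are no separate evidence about their promoters. Of the 13 listed genes with a match, 5 had no end peak, where 72.8% of all protein-coding genes had one. They were VCAM1 and SELE among the induced genes, TNIP1 and NFKBID among the inhibitor and feedback genes, and the adaptor gene TAB2. The match was sought around listed starts, which can lie inside a gene, where TNIP1 had 10 peaks and TAB2 9. Whether the matched windows of these genes lay in a peak was not tested. CXCL1, CXCL2 and IL6, the other induced genes with a match, each had an end peak.

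**Figure D5:**
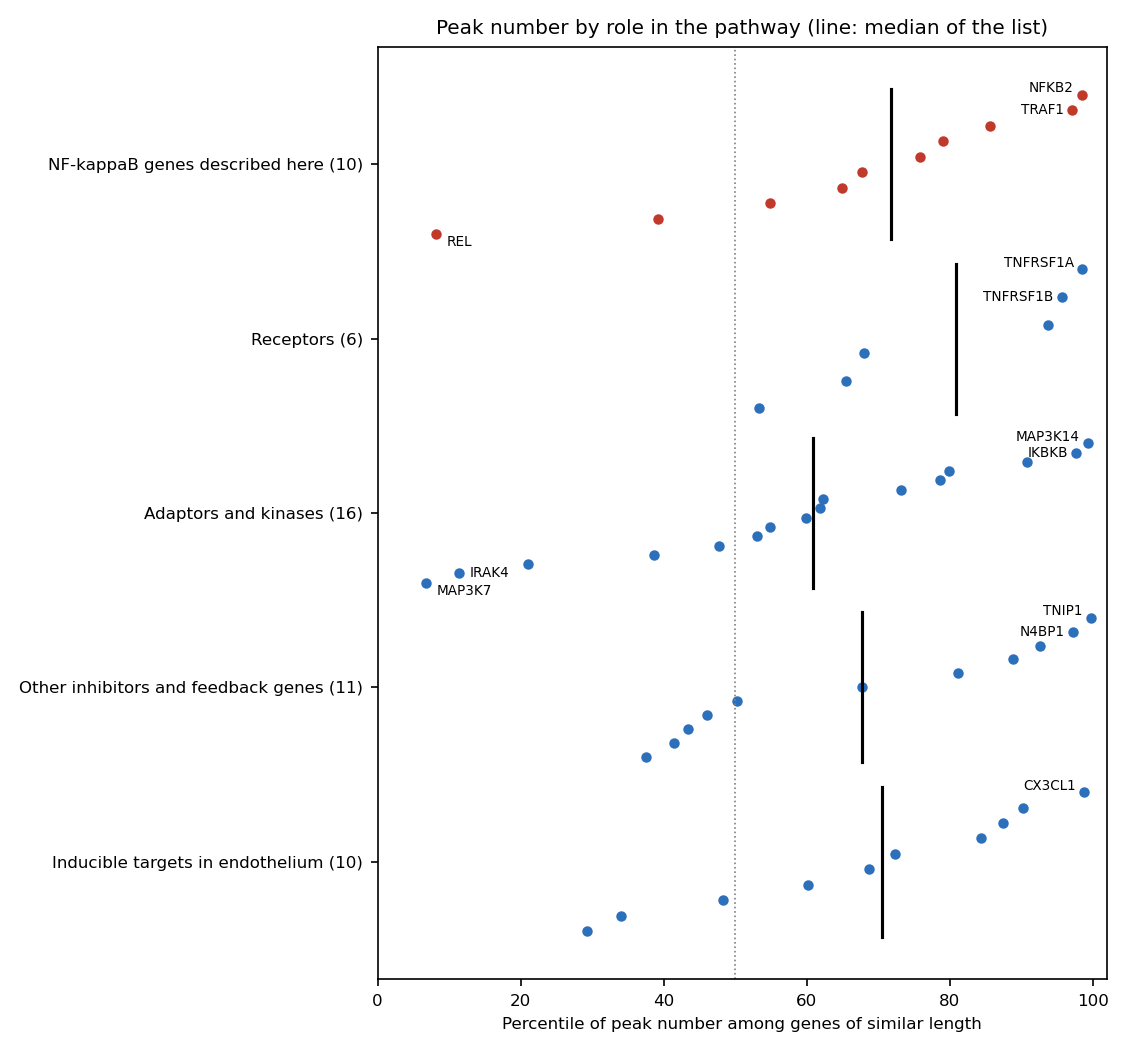
Percentile of peak number among genes of similar length (horizontal axis) for the NF-kappaB genes (red) and for the other pathway genes by role (blue, number of genes in brackets); vertical bars are medians. The medians run from 60.9 for adaptors and kinases to 80.8 for receptors, and single genes spread from 6.8 to 99.7.

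The labelled cell type was checked on the same library by marker genes. Of 10 endothelial markers 9 had an end peak, FLI1 being the exception, where 72.8% of all protein-coding genes had one. The median percentile of these 10 markers for peak number was 93.6. End peaks were also present at 4 of 5 leukocyte, 4 of 4 neuronal and glial and 4 of 4 mural markers, with median percentiles of 61.7, 82.4 and 78.0, so end peaks alone did not set the endothelial markers apart. The percentiles of peak number overlapped too. They ran from 48.0 to 99.8 for endothelial, 15.7 to 80.4 for leukocyte, 65.1 to 98.8 for neuronal and glial and 56.8 to 99.1 for mural markers.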

How the data were processed

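ATAC-seq was analysed from 1 library of hCMEC/D3 cells (replicate 2 by its title); the 2 RNA-seq tables of the series were not used, because no table here pairs their transcript identifiers with genes, so the planned transcript levels were not made. Per the file headers, the authors called broad peaks with MACS 2.2.7.1 with no control library; the settings were a shift of -100 bp, an extension to 200 bp, a q-value limit of 0.05 (broad regions 0.1), 1 tag per position, paired-end mode off and an effective genome size of 1870000000 bp, a mouse preset. The deposited list gives each peak's pileup signal (coverage in tags, not scaled, which in this caller's broad mode is a mean over the region), its fold ratio over a local background within 10000 bp, and −log10 p and q-values, and each served to describe, order or select peaks of this list alone. The lowest pileup listed was 8.0 tags, and less accessible sites were not detectable at this depth. Bowtie2, SAMtools 1.13, Picard and MACS2, and the builds GRCh38 and mm10, are listed in the submitters' processing notes without a role. The peak list names no build: 62.5% of 22199 listed GRCh38.p14 starts lay in a peak, against 3.1% to 4.0% when moved by 2 to 10 kb.

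Peaks overlapping a gene or 10 kb either side by at least 1 bp were counted with Python 3.11.15 and pandas 2.3.3 and placed once, as end (within 1 kb of either end), inside or flank. Percentiles are mid-ranks among protein-coding genes up to 25% longer or 20% shorter than the gene, the gene left out. Exons are not in the table. The counting was tested on simulated data. Genes and lists were chosen with earlier results of these data known. All 10 genes are named; of the pathway list, in each role the gene with most peaks and any gene with none were to be named, and others named there were picked after their values were seen. Alternatives covered window, flank, peak filter, overlap, comparison genes and motif form.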

Additional observations from a re-analysis of the deposited data

How the results depend on the processing

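No paired analysis was possible because there was 1 ATAC library, and leaving out a replicate could not be run for the same reason. Of 40 alternative values for the counts over the 10 genes, 31 stayed within 1.5-fold of the reported value and 9 moved; the flank of 1 kb was added after seeing the data. The 53 peaks became 35 with flanks of 1 kb and 30 with a fold of at least 4, since each keeps fewer peaks. Genes at or above the 90th percentile of peak number went from 2 to 1 with flanks of 5 kb. For summed length they went from 1 to 3 with flanks of 20 kb and of 1 kb, and to 2 with −log10 q of at least 5 and with a fold of at least 4; with flanks of 5 kb the 1 gene was RELA in place of TRAF1. For summed pileup they went from 2 to 1 with flanks of 5 kb and with a fold of at least 4. Which genes passed also changed: under the fold filter they were NFKBIZ, BIRC3 and TRAF1 for number, and NFKBIZ for summed pileup; the cause was not tested. End peaks were kept by 10 of 10 genes under each setting except the fold filter, which left 8 (not NFKBIA and TRAF1). The kappaB count of 9 of 16 windows was 9 with a stricter consensus, GGGRNWYYCC with W for A or T (6.53% of all windows). It was 10 with the form GGNNTTTCC (6.46%), which added TRAF1 start 2. Over all settings REL ranged from the 2.8th to the 43.4th percentile of peak number, the upper value with flanks of 20 kb. Of 60 peak numbers of single genes, 46 stayed within 1.5-fold and 11 of the 14 that moved were lower.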
